A study of Arabidopsis thaliana with 13 samples.

Results

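Siliques of fis1 mutant mothers pollinated by a diploid father were compared with siliques of tetraploid mothers pollinated by a diploid father, both at 5 days after pollination. The comparison rests on 4 of the 13 arrays of the series: the 2 arrays of the fis1X2x cross and the 2 arrays of the 4xX2x cross, taken from the sample labels, with the seed parent written first. The remaining arrays hold the balanced 2xX2x cross, the paternal excess crosses 2xX4x and 2xX6x, the lethal maternal excess cross 6xX2x, and 1 sample of unfertilised msi1 siliques that entered no comparison. Each replicated cross had 2 arrays, given in the labels as biological replicates.

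The fis1X2x mothers were of the Ler accession and homozygous for fis1-3 (= mea-3/f644), and their pollen came from diploid C24 plants. The 4xX2x mothers were tetraploid C24 plants carrying the A9-barnase transgene, which makes anthers sterile, and their pollen also came from diploid C24 plants. The mothers therefore differed in genotype, ploidy, accession and transgene at the same time, and these cannot be told apart here. RNA came from whole siliques pooled from at least 5 plants per cross, so the arrays report the silique wall, which is maternal tissue, together with the seed coat, endosperm and embryo, and the study notes that Ler siliques are shorter. In such bulk RNA, fewer cells of a type and less RNA per cell cannot be told apart.

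FIS1, also called MEDEA, encodes the SET-domain subunit of a Polycomb complex that keeps genes silent in the central cell and in the endosperm by methylating histones. Arabidopsis endosperm first grows as a syncytium of dividing nuclei and then forms walls around them, a step called cellularisation. Seeds of fis1 mothers fail to cellularise on time and abort, whereas seeds with a moderate excess of maternal genomes cellularise early, stay small and remain viable, so the comparison sets delayed against early cellularisation.

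The values were array signals scaled by the authors to a trimmed mean of 100.01 per array, and the medians over probe sets lay between 38.0 and 46.4 in the 13 arrays. Differences are given on the scale log2(signal + 7.4), where the offset compresses the change of dim genes, and a probe set was called when its Benjamini-Hochberg adjusted p in limma was under 0.05. The ratio of the 3' to the 5' actin control probe sets was 16.6 and 17.0 in fis1X2x and 5.48 and 2.81 in 4xX2x. Both 4xX2x values lay below those of all other arrays of the series, which ran from 8.19 to 28.5. This measure of RNA integrity therefore moved with the groups, and its part in the results was not tested. The GAPDH ratio overlapped between the groups, at 1.75 and 2.84 against 1.20 and 2.07. In the 1599 brightest probe sets the median difference between fis1X2x and 4xX2x was 0.16, against -0.04 over all probe sets, and it was 0.01 after quantile normalization. On chromosome 2 the second 4xX2x array lay 0.20 log2 units below the first when set against the other chromosomes. None of the probe sets named for a single gene was that of MEA itself, so the mutation was not checked here. The gene annotation used named no gene for 8730 of 22746 probe sets. A gene described below as without a probe set of its own may still be measured on the array.

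Of 15982 probe sets tested, 883 differed between the crosses (5.52%), with 435 higher in fis1X2x (2.72%) and 448 lower (2.8%). The higher calls had a median difference of 2.23 and the lower calls of -1.84, while the median over all probe sets was -0.04. All 883 calls had no overlap between the arrays of the crosses, which was also true of 20.1% of all probe sets in the higher direction and 25.6% in the lower. The total fell to 442 when the first 4xX2x array was left out, to 586 and 537 when the first or the second fis1X2x array was, and to 521 when the spread was estimated from the compared arrays alone.

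**Figure D1:**
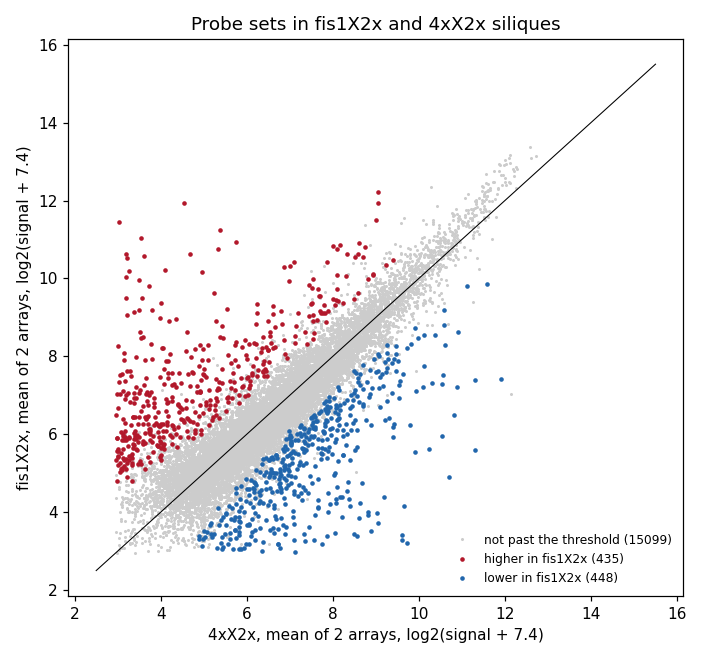
Mean level of each of the 15982 probe sets in 4xX2x (x axis) and fis1X2x (y axis), each the mean of 2 arrays as log2(signal + 7.4); the line marks equal levels. Red points are the 435 probe sets higher in fis1X2x and blue points the 448 lower, and many of both lie against the floor of the other cross.

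Genes were ranked among the probe sets named for 1 gene, which held 262 of the 435 rises and 218 of the 448 falls. Among the 15 genes with the greatest rises in fis1X2x, 3 belong to the defensin-like class. Its cysteine-rich peptides are secreted and are known from defence and from reproductive tissue. AT3G24510, a defensin-like gene, had signals of 1728.6 and 4532.0 in fis1X2x and of 0.3 and 1.2 in 4xX2x. In the balanced 2xX2x cross it read 30.6 and 27.7, so the groups lay on either side of the balanced cross. Its difference was 8.43 ± 0.38 (SE, n = 2 arrays a cross; adjusted p = 8.25e-07). AT5G54220, also defensin-like, read 1156.4 and 2107.2 against 0.8 and 2.8, a difference of 7.42 ± 0.39 (adjusted p = 1.9e-06). LCR24, a low-molecular-weight cysteine-rich gene, read 1020.3 and 1047.6 against 2.3 and 1.2, a difference of 6.83 ± 0.41 (adjusted p = 3.71e-06). None of these genes overlapped between the crosses, and the 4xX2x signals lay near the floor of the array. The class did not move as a whole: of 7 defensin-like genes tested, 4 rose and 2 fell, beside 2.72% higher and 2.8% lower calls over all probe sets. LCR69 read 82.0 and 308.2 in fis1X2x and 2758.5 and 2333.9 in 4xX2x, and fell by 3.92 ± 0.47 (adjusted p = 0.000571). PDF2.1, a plant defensin, read 0.9 and 9.7 against 95.0 and 100.8 and fell by 3.14 ± 0.44 (adjusted p = 0.00158). For LCR69 and PDF2.1 the balanced cross was at the level of 4xX2x, with 2500.0 and 3438.3 for LCR69 and 134.7 and 59.5 for PDF2.1. LCR68 was not called, with a difference of 0.98 ± 0.36 (adjusted p = 0.172).

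AT2G30810, a member of the gibberellin-regulated GASA family, was also among the leading rises. It read 3632.4 and 4209.2 in fis1X2x, 13.2 and 18.5 in 4xX2x, and 165.6 and 278.4 in 2xX2x. Its difference was 7.41 ± 0.34 (adjusted p = 8.25e-07), and the 3 crosses did not overlap. In the other crosses the gene was low with maternal excess, at 20.0 and 45.0 in 6xX2x, and high with paternal excess, at 1582.2 and 1212.2 in 2xX4x and 3827.7 and 4131.1 in 2xX6x. It was the 1 gene of the 27 in the gibberellin list that had a probe set of its own in the gene annotation used.

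The other leading rises covered wall, lipid and unknown functions. EXPA21, an expansin that loosens cell walls, read 334.9 and 839.5 in fis1X2x against 1.7 and 2.0 in 4xX2x, a difference of 5.86 ± 0.39 (adjusted p = 9.47e-06). AT2G39640, a glycosyl hydrolase of family 17, read 753.2 and 1882.7 against 9.2 and 10.5, a difference of 6.12 ± 0.45. AT1G73610, a GDSL-motif lipase, read 552.8 and 605.4 against 5.3 and 2.5, a difference of 5.71 ± 0.43. In these genes every fis1X2x array was far above every 4xX2x array and above both 2xX2x arrays. AT3G02670, AT2G02515, AT2G19970, AT3G05460 and AT4G35725, the first annotated as proline-rich, differed by 5.92, 7.33, 5.77, 5.26 and 5.19. AT2G19970 stood out among them because 2xX2x, with 246.8 and 493.8, was near fis1X2x, with 376.7 and 815.7, while 4xX2x read 2.3 and 3.6.

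**Figure D2:**
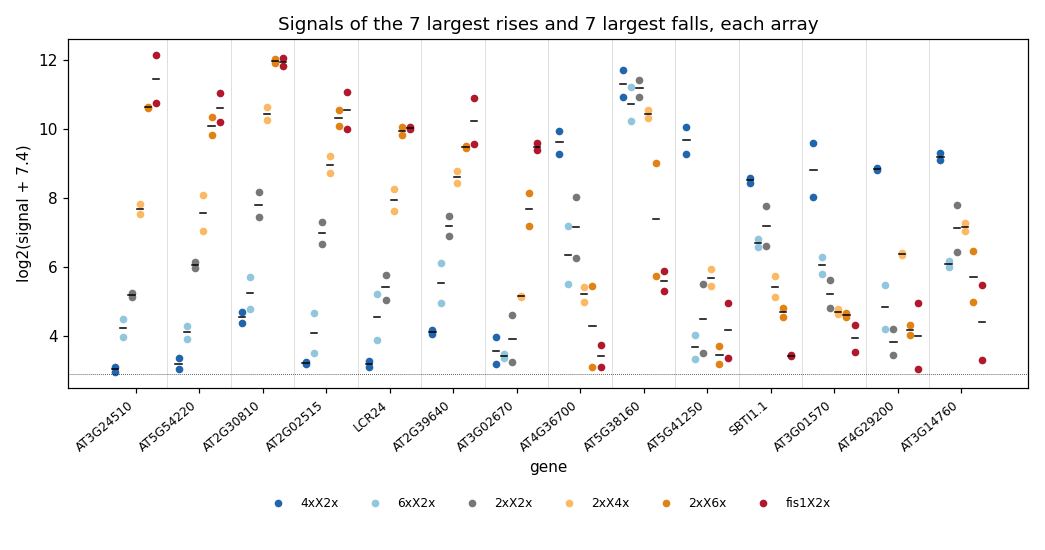
Signals as log2(signal + 7.4) (y axis) for the 7 largest rises and 7 largest falls in fis1X2x among probe sets named for 1 gene. Each point is 1 array, colours are the 6 crosses and black bars are means of 2 arrays. The dotted line is a signal of 0. In 6 of the 7 rises, 4xX2x lies at the bottom, 2xX2x between, and 2xX6x and fis1X2x at the top. AT3G24510, for example, has 0.3 and 1.2 in 4xX2x and 1728.6 and 4532.0 in fis1X2x. In AT3G02670 2xX2x (2.0 and 17.0) overlaps 4xX2x (8.1 and 1.7). In the falls 4xX2x stands at the top, except in AT5G38160, where 4xX2x (1928.5 and 3312.0) overlaps 2xX2x (1949.2 and 2738.7).

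Type I MADS-box genes, a family of transcription factors that is active in the female gametophyte and early endosperm, gave rises and no falls in fis1X2x, with 6 of 12 tested members called. Of 27 genes listed, 18 had a probe set of their own and 12 of those passed the filter on dim probe sets, 4 of them through fis1X2x or 4xX2x arrays alone. The median difference of the 12 tested was 1.84, and the 6 rises stand beside 2.72% higher calls over all probe sets. Those 4 may have been tested because they differ, so the count is a description. AT5G26630 read 75.1 and 151.4 in fis1X2x and 1.9 and 2.7 in 4xX2x, a difference of 3.56 ± 0.42 (adjusted p = 0.000538). AGL96 read 59.3 and 99.6 against 0.7 and 2.0, a difference of 3.28 ± 0.54 (adjusted p = 0.00446). AGL62, which holds the endosperm in its syncytial phase, read 53.5 and 44.3 against 3.2 and 10.7, a difference of 2.02 ± 0.43 (adjusted p = 0.0185). Its arrays did not overlap, and the balanced cross, with 8.6 and 4.7, was at the 4xX2x level. AT4G36590 (AGL40) rose by 2.96 ± 0.64, AGL29 by 2.19 ± 0.54 and AGL28 by 1.73 ± 0.42. AGL57, AGL23, AGL61 and AGL91 had positive differences of 1.96, 1.43, 1.28 and 1.08 that did not pass the test, and AGL87 and AGL80 had negative ones of -0.22 and -1.14. The signals of this family were low, and single arrays decided some calls: the adjusted p of AGL62 ranged from 0.00752 to 0.15 over the alternatives, that of AGL29 from 0.00415 to 0.183 and that of AT4G36590 from 0.00693 to 0.167. The 6 genes below the filter never read above 36.4 on any of the 12 arrays.

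Imprinted genes are those whose endosperm transcripts come mainly from 1 parent's alleles. Of 21 genes listed, 5 had their own probe set, 3 passed the filter and these 3 rose, beside 2.72% higher calls over all probe sets. MPC, a maternally expressed gene of the endosperm, read 268.7 and 158.3 in fis1X2x and 11.6 and 39.5 in 4xX2x, a difference of 2.84 ± 0.44 (adjusted p = 0.00279). AT3G23060 read 65.9 and 38.4 against 1.4 and 2.1, a difference of 2.66 ± 0.38 (adjusted p = 0.00184). AT1G49290 read 51.9 and 71.3 against 6.7 and 13.9, a difference of 1.98 ± 0.45 (adjusted p = 0.0279). No array overlapped in any of the 3, though the adjusted p of AT1G49290 ranged up to 0.198 over the alternatives. MPC in 2xX2x read 14.8 and 5.0, which was not above 4xX2x.

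Hormone genes gave 2 rises among 3 tested, beside 2.72% higher calls over all probe sets. GH3.3, which encodes an enzyme that conjugates auxin to amino acids, read 675.0 and 920.6 in fis1X2x and 38.4 and 23.4 in 4xX2x, a difference of 4.41 ± 0.65 (adjusted p = 0.00216). Its 2xX2x arrays disagreed, at 487.5 and 64.5, so the place of the balanced cross was not determined. RR22, a cytokinin response regulator, read 729.0 and 991.0 against 97.6 and 308.7, a difference of 2.23 ± 0.50 (adjusted p = 0.0252, up to 0.192 over the alternatives). RR19, a response regulator that was outside the lists and was chosen after its values were seen, read 58.1 and 83.3 against 10.4 and 8.1 and rose by 2.21 ± 0.45.

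Lipid transfer protein genes, which encode small secreted lipid carriers, split in direction. AT5G09370 read 2248.2 and 2563.1 in fis1X2x and 29.3 and 39.5 in 4xX2x, a difference of 5.86 ± 0.27 (adjusted p = 8.25e-07), with 426.4 and 651.3 in 2xX2x. AT1G73560 read 387.8 and 844.9 against 13.3 and 2.0, a difference of 5.38 ± 0.63 (adjusted p = 0.000517). In both genes 2xX2x lay between the compared crosses, with 38.1 and 39.2 for AT1G73560. AT5G38160 moved the other way, with 32.3 and 51.6 in fis1X2x and 1928.5 and 3312.0 in 4xX2x, and fell by 5.71 ± 0.80 (adjusted p = 0.00154). Its neighbour AT5G38170 read 116.4 and 228.8 against 3035.9 and 4882.5 and fell by 4.50 ± 0.69 (adjusted p = 0.00268). In both of these neighbours 2xX2x was at the 4xX2x level, with 1949.2 and 2738.7 for AT5G38160. AT5G38195, in the same stretch of loci, rose by 1.51 ± 0.35 (adjusted p = 0.0301, up to 0.219 over the alternatives) and was higher in 2xX2x, at 1257.6 and 2160.5, than in either compared cross. AT5G38180, also in this stretch, was not called, with a difference of -0.01 ± 0.84. It read 17.9 and 15.1 in fis1X2x and 59.3 and 1.2 in 4xX2x, both far below 2xX2x at 1710.0 and 1815.7. Of 6 members tested, 3 rose and 2 fell, beside 2.72% higher and 2.8% lower calls over all probe sets.

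Seed oil and storage genes, which mark the maturing seed, were lower in fis1X2x. Of 28 genes listed, 5 had their own probe set and were tested, 3 fell and none rose, beside 2.8% lower calls over all probe sets, and 2 of the 5 passed the filter through the compared arrays alone. AT4G36700, a cupin of the storage protein class, read 1.2 and 5.8 in fis1X2x and 977.5 and 616.1 in 4xX2x, and fell by 6.20 ± 0.79 (adjusted p = 0.000844). AT3G01570, an oleosin that coats oil bodies, read 4.2 and 12.6 against 760.3 and 253.9 and fell by 4.88 ± 0.49 (adjusted p = 0.000188). OLEO3, another oleosin, read 24.1 and 60.5 against 1311.3 and 703.1 and fell by 4.39 ± 0.44 (adjusted p = 0.000194). In these 3 genes the 4xX2x arrays stood above the balanced cross, which read 254.3 and 68.8 for AT4G36700, 41.5 and 20.7 for AT3G01570 and 170.7 and 184.4 for OLEO3. PAP85, a vicilin-like storage protein gene, read 15.4 and 14.8 against 93.4 and 47.8, and the oleosin AT3G18570 read 4.1 and 1.5 against 23.8 and 32.2. Their differences of -1.73 ± 0.52 (adjusted p = 0.0891) and -1.80 ± 0.48 (adjusted p = 0.057) did not pass the test, although the arrays did not overlap.

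Other falls included enzymes and genes of unknown role. SBTI1.1, a subtilisin-like protease, read 3.4 and 3.3 in fis1X2x and 373.3 and 338.2 in 4xX2x, and fell by 5.08 ± 0.37 (adjusted p = 1.8e-05). The balanced cross lay between, at 209.8 and 89.3. AT1G71250 read 12 and 3.2 against 336.4 and 430.3 and fell by 4.76 ± 0.46 (adjusted p = 0.000163), with 253.0 and 274.5 in 2xX2x. AT5G41250, AT4G29200, AT3G14760, AT1G23200, AT5G15180 and AT1G61500 also fell, with differences of -5.51, -4.83, -4.80, -4.32, -4.32 and -4.27. The sole run of 3 neighbouring measured loci with the same call was AT5G16230, AT5G16240 and AT5G16250, which fell by 2.86, 1.27 and 2.76, and the first 2 of these lost their calls under some alternatives, with an adjusted p of up to 0.106 and 0.182.

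Sugar transporter and cell wall families, some of them grouped after their values were seen, gave calls in both directions, and their counts stand beside 2.72% higher and 2.8% lower calls over all probe sets. Among 16 SWEET sugar transporter probe sets, SWEET8 rose, with 305.8 and 481.3 against 20.2 and 13.9, a difference of 4.01 ± 0.33. SAG29 (SWEET15) fell by 3.05 ± 0.42, from 566.2 and 188.5 in 4xX2x to 30.9 and 35.3 in fis1X2x, and AtVEX1 (SWEET5) fell by 1.61 ± 0.34. The other 13 were not called. Of 20 trichome birefringence-like genes, whose products acetylate wall polysaccharides, TBL15, TBL42, TBL43 and TBL41 rose by 4.54, 2.70, 2.40 and 1.98, and TBL38 fell by 1.32. Of 12 endoglucanase genes of glycosyl hydrolase family 9, GH9B17 and GH9B11 rose by 3.18 and 2.31, and GH9C1 fell by 3.44. Of 19 serine carboxypeptidase-like genes 3 rose and none fell, with scpl47 at 301.2 and 278.5 against 8.4 and 9.6, a difference of 4.18 ± 0.24. RALFL28, a gene of the rapid alkalinization factor peptides, read 326.1 and 370.0 against 0.6 and 9.7 and rose by 4.92 ± 0.40. No cytochrome P450 gene was called among 12 tested with limma (1 at an unadjusted p under 0.05), and of 23 UDP-glucosyltransferase genes UGT71C4 fell by 1.74.

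The tested genes of the cell division machinery, a small part of those listed, gave no call at the adjusted threshold in limma. At an unadjusted p under 0.05 the mitotic, cytokinesis and replication lists gave 2, 1 and 1. The 5 mitotic genes tested of 26 listed all had negative differences, with a median of -0.43, from -0.25 ± 0.42 for the Aurora kinase gene AUR3 to -1.24 ± 0.54 for AUR2. AUR2 read 2.9 and 29.8 in fis1X2x and 38.2 and 39.3 in 4xX2x. Of 24 cytokinesis genes listed, 3 were tested. TPLATE differed by 0.67 ± 0.29 and KEU, a regulator of membrane fusion at the cell plate, by -0.25 ± 0.28. The phragmoplast kinesin gene KINESIN-12B differed by -0.92 ± 0.56. The 4 DNA replication and histone genes tested of 21 listed lay between -0.44 and 0.69. IKU1, an endosperm growth gene, differed by 0.10 ± 0.21, and IKU2 read 7.2 and 2.9 against 7.1 and 8.3, below the filter. The Polycomb, D cyclin and embryo lists had no member with a probe set of its own in the gene annotation used. Their genes were therefore not analysed here, although the array may measure them. KNOLLE also had no probe set of its own there, and no gene of the cyclin and cyclin-dependent kinase family was tested. The paper called KNOLLE and mitotic cyclins, among other mitosis-specific genes, down in 2xX6x, fis1X2x or both, each set against 2xX2x.

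Markers of seed coat, silique wall and photosynthesis were measured beside these results. Tested were 2 of 18 seed coat, 1 of 7 silique wall and 2 of 13 photosynthesis genes listed. None of the 5 seed coat, silique wall and photosynthesis markers tested was called in limma, while 1 seed coat and 2 photosynthesis markers had an unadjusted p under 0.05. The seed coat genes DFR and BAN differed by 0.75 ± 0.31 and -0.54 ± 0.42, and their summed signal lay between 2176.4 and 3081.8 in fis1X2x and between 2046.7 and 2824.2 in 4xX2x. ALC, a gene of the valve margin, read 381.7 and 254.9 against 250.9 and 379.9. The summed signal of the photosynthesis genes RCA and LHCB4.1 was 9109.8 to 10460.0 in fis1X2x and 5285.6 to 6956.2 in 4xX2x, so the ranges did not overlap, and the part of this shift in the results was not tested.

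**Figure D3:**
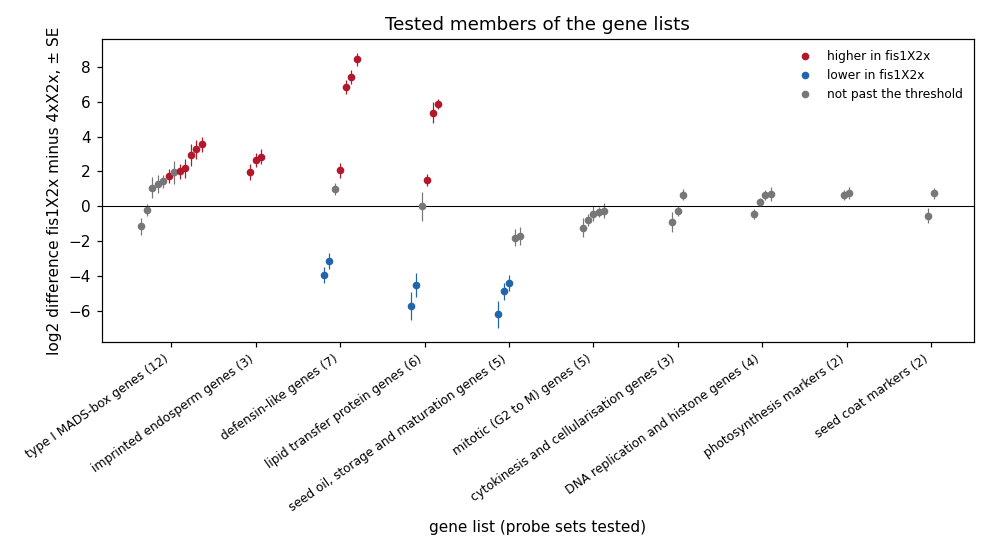
Difference between fis1X2x and 4xX2x on the log2(signal + 7.4) scale (y axis) for each tested member of 10 gene lists (x axis, number of probe sets in brackets); bars are standard errors, red is higher, blue is lower and grey is not past the threshold. The tested MADS-box members lie mainly above 0 with a median of 1.84, the storage genes below 0 with a median of -4.39, and the defensin-like and lipid transfer genes on both sides.

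The question of delayed against early cellularisation was also put to 2xX6x against 6xX2x, whose arrays enter neither mean of the first comparison but share its estimate of the spread. The 2xX6x mothers were diploid C24 plants with A9-barnase pollinated by hexaploid Col-1, and the 6xX2x mothers were emasculated hexaploid Col-1 plants pollinated by diploid C24, so the accession of the mother and the direction of the cross cannot be told apart there. There 459 probe sets were called, 300 higher in 2xX6x (1.88%) and 159 lower (0.995%). In 6xX2x replicate 1 the actin and GAPDH ratios were 28.5 and 6.93, the highest of the 13 arrays, and the part of this in the calls was not tested. The 459 calls became 220 without that array, 707 without 6xX2x replicate 2, and 137 and 304 without 2xX6x replicates 1 and 2. Of the 435 probe sets higher in fis1X2x, 167 were also higher in 2xX6x, which is 38.4% of the first list and 55.7% of the second. Of the 448 lower in fis1X2x, 41 were also lower in 2xX6x, which is 9.2% and 25.8%. Among the 100 largest rises 76 were called the same way, and among the 100 largest falls 16. The median difference between 2xX6x and 6xX2x was 1.14 for the higher calls, -0.32 for the lower calls and 0.00 for all probe sets. Opposite calls were made for 11 of the higher and 4 of the lower. Of the leading rises, AT2G30810 differed by 7.41 in the first comparison and 6.72 in the second, EXPA21 by 5.86 and 6.93, AT3G24510 by 8.43 and 6.39, AT2G39640 by 6.12 and 3.93, and AT1G23960 by 4.94 and 0.48. The MADS-box gene AT5G26630 differed by 3.56 and 3.31 and MPC by 2.84 and 2.67. The storage genes were not called in the second comparison, where AT4G36700, AT3G01570 and OLEO3 differed by -2.07, -1.43 and -1.15. The count of shared rises was 85 without 2xX6x replicate 1, where that of shared falls was 9. Leaving out the first 6xX2x array gave 15 shared falls, leaving out the first 4xX2x array gave 24, and leaving out either 2xX4x array gave 27.

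**Figure D4:**
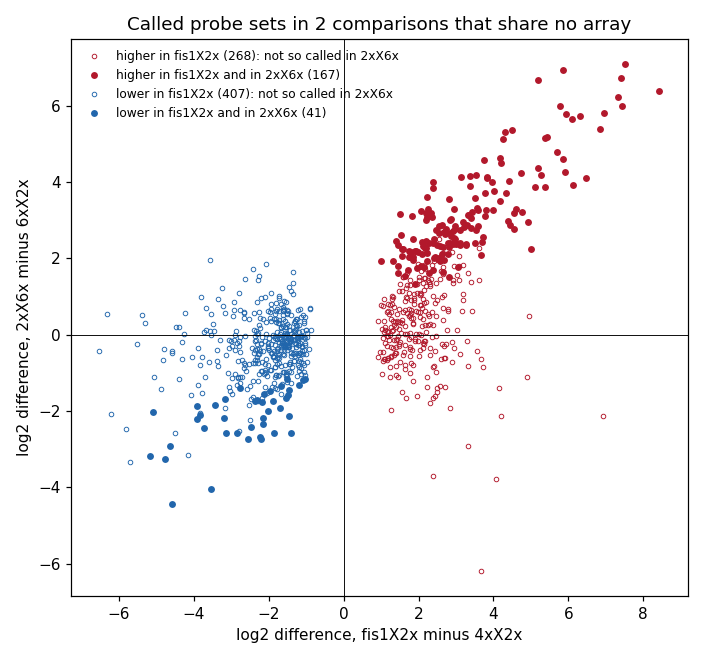
Difference between fis1X2x and 4xX2x (x axis) and between 2xX6x and 6xX2x (y axis), both in log2(signal + 7.4), for the 883 called probe sets; red is higher and blue lower in fis1X2x, and filled points carry the same call in both comparisons. Filled points are 167 of the 435 red and 41 of the 448 blue, and the blue cloud is centred near 0 on the y axis, at a median of -0.32.

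A direct test of the difference between both differences called 189 probe sets. It called 59 of the 435 rises as larger in fis1X2x against 4xX2x, beside 0.544% of all probe sets. It called 83 of the 448 falls as deeper there, beside 0.638%. The fis1X2x and 4xX2x arrays that made the rises and falls also enter this test, so the counts are a description. Leaving out single arrays moved the 189 to between 48, without 2xX6x replicate 1, and 318, without 6xX2x replicate 2. AT1G23960 read 274.2 and 253.8 in fis1X2x and 2.1 and 0.8 in 4xX2x, a difference of 4.94 ± 0.23 (adjusted p = 8.25e-07). In every other cross it lay between 209.5 and 330.0, so 4xX2x stood alone in lacking this transcript. For AT1G61500 the pattern was turned round, with 224.4 and 144.9 in 4xX2x, 48.4 and 55.5 in 2xX4x and at most 4.3 on the other 8 arrays. AT4G29200 read 455.0 and 437.3 in 4xX2x, 77.8 and 73.7 in 2xX4x and at most 36.8 elsewhere. Both 4xX2x and 2xX4x have a tetraploid C24 parent. All 4 arrays of these crosses lay above the other 8 in 18 of the 448 falls (4.0%, against 0.33% of all probe sets) and below them in 13 of the 435 rises (3.0%, against 0.29%). AT4G22400, chosen after its values were seen, was among the latter, with 1.6 and 1.7 in 4xX2x, 46.9 and 49.4 in 2xX4x and 133.3 and 189.3 in fis1X2x. A call already places the 4xX2x arrays beyond those of fis1X2x, so the 4.0% and 3.0% describe the calls and are not tests.

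**Figure D5:**
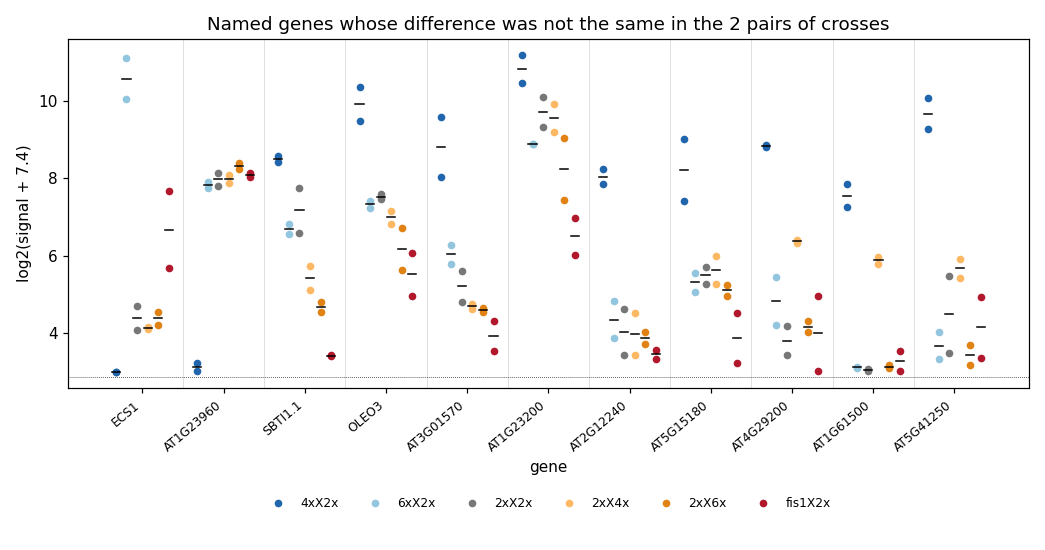
Signals as log2(signal + 7.4) (y axis) of the 11 named genes whose difference between fis1X2x and 4xX2x was not the same as that between 2xX6x and 6xX2x; points are arrays, colours the 6 crosses, bars means of 2 arrays. In 9 of the 11 genes the 4xX2x arrays lie at the top, in AT1G23960 they lie alone at the bottom with 2.1 and 0.8, and ECS1 is highest in 6xX2x with 1041.2 and 2184.9.

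The balanced cross gives the place of each compared cross. Setting the low cross at 0 and the high cross at 1, 2xX2x lay at a median of 0.54 in the rises (quartiles 0.26 and 0.8) and 0.52 in the falls (quartiles 0.2 and 0.86). Both 2xX2x arrays lay between those of the compared crosses in 209 of the 435 rises and 192 of the 448 falls. Neither the positions nor these counts were taken over all probe sets, so they have no background share. The 4xX2x arrays were below all 10 other replicated arrays in 215 of the rises (49.4%, against 4.32% of all probe sets), and the fis1X2x arrays were above all others in 110 (25.3%, against 2.59%). Among the falls the 4xX2x arrays were above all others in 242 (54.0%, against 5.09%) and the fis1X2x arrays below all others in 181 (40.4%, against 4.0%). These shares describe the calls and are not tests, since the same arrays made the calls. The 4xX2x arrays also had the lowest actin ratios of the series, and the part of this in the shares was not tested.

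Loci annotated as pseudogenes were often among the falls. This group was chosen after its values were seen. Of 76 pseudogene probe sets tested, 10 were lower in fis1X2x (13.16%, against 2.39% of protein-coding genes) and 3 were higher. In 9 of the 10 the 4xX2x arrays were above all 10 others. Of the 448 falls, 41 passed the filter on dim probe sets only with fis1X2x or 4xX2x arrays, against 518 of all 15982. This was not counted for the pseudogenes. Some of them may have been tested because they differ, so their share is a description. AT2G12240 read 225.2 and 292.6 in 4xX2x and at most 21.1 on any other array, and fell by 4.58 ± 0.53 in fis1X2x (adjusted p = 0.000457). AT3G30396 read 252.2 and 205.3 in 4xX2x and at most 11.8 elsewhere, and AT2G12300 read 178.3 and 194.3 against at most 15.2. In 2xX4x these 3 loci were near the floor, between 1.7 and 15.8. AT5G34920 differed from them, with 108.2 and 100.2 in 4xX2x, 69.3 and 56.4 in 2xX4x and 43.4 and 27.9 in 2xX2x.

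Some calls fell in genes that differed between crosses with mothers of different accessions. Of 4 tested genes listed as linked to accession in earlier results, 1 rose and 1 fell in fis1X2x. AT1G47400 and QQS, also on that list, were not called, and their fis1X2x and 4xX2x arrays overlapped. Their differences were 0.67 ± 0.63 (adjusted p = 0.668) and -0.47 ± 0.56 (adjusted p = 0.742). ECS1 read 196.4 and 43.8 with the Ler mother, 1041.2 and 2184.9 with the Col-1 mother of 6xX2x, and between 0.6 and 18.9 with every C24 mother. Its difference between fis1X2x and 4xX2x was 3.67 ± 0.56 (adjusted p = 0.00263). AT2G25510 read 2.9 and 0.6 with the Ler mother, 2567.7 and 1629.8 with the Col-1 mother and between 23.2 and 393.9 with C24 mothers, and fell by 4.57 ± 0.85 in fis1X2x (adjusted p = 0.00888, up to 0.0972 over the alternatives). How many of the 883 calls follow the accession of the mother could not be counted, because no Ler mother without the mutation was arrayed among the samples analysed here.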

How the data were processed

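The 13 ATH1 arrays each measured 1 pooled silique RNA, and the deposited table gives MAS5 signals, an intensity on a linear scale, which the authors scaled per array to a common trimmed mean. Probe level data were not used here. Control probe sets (64 of 22810) were left out. Of the other 22746, 13513 named 1 gene, 503 several and 8730 none. Values were taken as log2(signal + 7.4), the offset being the 20th percentile of all signals, and a probe set was tested where at least 2 of the 13 arrays read above their own 40th percentile, which kept 15982 and removed 6764. The 6 replicated crosses (12 arrays) entered 1 linear model with a mean per cross and 6 residual degrees of freedom, using R 4.3.3 and limma 3.58.1 with a moderated, trended variance and two-sided tests. P-values were adjusted over all tested probe sets by Benjamini-Hochberg. The labels call the replicates biological without giving their plants, so p-values measure only the spread between these arrays. Arrays have no read depth, and their number limits the precision. On simulated data with known changes, the fit recovered 8% of probe sets changed by 1 log2 unit and 72% of those changed by 2. It recovered 92% of those changed by 3 and 98% by 4, with 14 false calls beside 135 true ones. The simulation used normal noise and changed fis1X2x alone, so these counts do not give the share of false calls in the real data. Genes were named from the platform table, with loci from TAIR10.1, and only probe sets with 1 gene there could be named. The rules took the 15 largest rises and falls called without overlap and up to 5 called members of each gene list. They also took a fixed set of endosperm genes and runs of 3 called neighbours. The members and lists were chosen with earlier results of these data known. Lists were described by counts and medians without a set test. The labels give both crosses the replicate numbers 1 and 2; deviations of same-numbered arrays correlated at 0.155 between fis1X2x and 4xX2x and between -0.237 and 0.412 over all pairs of crosses, so the numbers were not used as pairs. Alternatives varied the offset, filter, normalization, weights, variance model, arrays in the fit, replicate block and each left-out array. Promoter motifs were not analysed here.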

Additional observations from a re-analysis of the deposited data

Results flagged for a closer look

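The results below stand apart because the change between fis1X2x and 4xX2x was not the same as the change between 2xX6x and 6xX2x by the limma test of the difference itself; the value given is the first difference minus the second on the log2 scale. For ECS1 it was 9.85 (adjusted p = 0.000277), with differences of 3.67 and -6.18 of opposite sign. For AT1G23960 it was 4.46 (adjusted p = 0.000142). Among the genes that fell in fis1X2x, it was -5.27 for AT5G41250 (adjusted p = 0.0252), -4.29 for AT1G61500 (adjusted p = 0.00764) and -4.16 for AT4G29200 (adjusted p = 0.0381). It was -4.12 for AT5G15180 (adjusted p = 0.0301), -4.10 for the pseudogene AT2G12240 (adjusted p = 0.0266) and -3.68 for AT1G23200 (adjusted p = 0.0419). For the oleosins AT3G01570 and OLEO3 it was -3.45 (adjusted p = 0.041) and -3.24 (adjusted p = 0.0357), and for SBTI1.1 it was -3.06 (adjusted p = 0.0207). With 2 arrays a cross, no array could be tested as an outlier within its cross.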

How the results depend on the processing

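With single arrays left out, the main comparison gave 442 (without 4xX2x replicate 1) to 909 calls (without either 6xX2x array). Under all 23 alternatives none of the 883 calls was called in the opposite direction, and the share of higher calls lay between 48.1% and 56.3%. With single arrays left out, the 2xX6x and 6xX2x comparison gave 137 to 707 calls, the difference of differences 48 to 318, and the calls shared by both comparisons 94 to 225, of which 85 to 176 were higher and 9 to 49 lower. With only the compared arrays in each fit, the counts were 521, 255 and 100, with 124 shared calls, 106 higher and 18 lower; fewer arrays then estimate the spread. The replicate number as a block gave 974 calls in the main comparison, 495 in the second and 216 for the difference of differences, with no named gene losing its call. Deviations of same-numbered arrays correlated above 0.1 in some pairs of crosses and not in others, so the numbers were not used as pairs, and whether they mark a shared batch was not tested. Of 1076 values of the 47 named probe sets under 23 alternatives, 1032 kept direction and side of the threshold, 44 lost the call and none reversed; 38 probe sets never changed, and the others were AGL29, AGL62, AT4G36590, AT1G49290, RR22, AT5G38195, AT5G16230, AT5G16240 and AT2G25510. Where a cross was left with 1 array, its spread was assumed to be that of the other crosses. Changes near 1 log2 unit were mostly missed in simulated data, so a gene without a call may still differ.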
